A study of Rattus norvegicus with 10 samples.

Results

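The genes of olfactory signal transduction were measured in the right brain of rats that had just inhaled an odor or, as controls, water vapor. They are Omp, Gnal, Adcy3, Cnga2, Cnga4, Cngb1, Ano2, Gng13, Ric8b and Ebf1, 10 genes chosen for their place in odor signalling. The platform annotation gave 9 of them at least 1 probe set that names a single gene, 16 probe sets in all, out of 31042 probe sets and 14217 named genes. Ric8b, an exchange factor for the olfactory G protein, is not named on the array here and is not analysed. A further 3 probe sets are shared between Ebf1 and its relative Ebf3 and were left out of the counts.

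The DMHF group held 5 male Wistar rats, aged 7 weeks, that breathed DMHF vapor for 5 min, and the control group held 5 of the same strain, sex and age that breathed vapor of distilled water (control) for 5 min. DMHF is a sweet-smelling dimethylated hydroxyfuranone of strawberry and caramel. Per the design text, a short wait separated DMHF inhalation from killing, and inhalation took place ahead of the dark phase. Each array carried 1 rat, and the comparison asks what changes in brain RNA within minutes of smelling DMHF. The tissue was the right part of the brain cut at the midline. The labels name brain alone and do not say whether the olfactory bulb was kept with it.

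In the nose, an odorant binds a receptor on the cilia of a sensory neuron, and the receptor activates the G protein that holds Gnal. The G protein switches on the cyclase Adcy3, cyclic AMP opens a channel built of Cnga2, Cnga4 and Cngb1, and the calcium that enters opens the chloride channel Ano2. Inside the brain several of the same proteins have other posts: Gnal couples dopamine and adenosine receptors to cyclase in the striatum, and Adcy3 sits in the primary cilia of neurons.

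No olfactory transduction gene differed between DMHF rats and control rats by the test. Of the 16 probe sets, 0 passed limma at an adjusted p under 0.05, where 0% of all 31042 probe sets did, and their adjusted p values were all 0.931 or more. At an unadjusted p under 0.05, limma listed 0 of the 16, against 5.48% of all probe sets (1700, of them 1002 higher and 698 lower in DMHF; 450 and 154 after quantile normalization, 208 and 333 with a common array median), and the exact permutation test listed 0 of the 16, against 5.13% of all probe sets. The groups overlapped on all 16, while 0.867% of all probe sets had groups that did not overlap. The difference was above 0 for 13 of the 16, which is 81.3%, against 53.2% of all probe sets, and its median was 0.65 within-group SD, against 0.05 SD over all probe sets. The 13 come from 8 genes, and several probe sets measure the same transcript in the same 10 rats, so they are not 13 separate observations. The share above 0 also varied with brightness. Among the 15521 brighter probe sets it was 45.5%, with 5 of 7 member probe sets above 0. In a mostly dim list of genes of other tissues, described below, 21 of 31 probe sets (67.7%) were above 0, with a median of 0.23 SD. A lean above 0 was therefore not particular to the members.

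Each deposited value is read here as a log2 expression value, since the scale is not stated, and it barely moves between arrays. Over the 10 arrays the typical probe set had an SD of only 2.20 millionths of a log2 unit (median), and the array medians spanned 15.2 millionths around 7.24. Values below are therefore given in millionths of a log2 unit from the mean of the control rats, and differences also in units of that probe set's within-group SD. They cannot be read as fold changes of RNA. In RNA of a whole hemisphere, fewer cells of a type and less RNA per cell cannot be told apart. Nothing in the labels says whether the rats shared cages or litters.

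The members were set beside genes known mainly from other tissues for their brightness on these arrays. A list of genes of liver, testis, pancreas, muscle, kidney and mammary gland, with 31 probe sets, had its median at the 21.8th percentile of brightness and its upper quartile at the 46.5th. The list was not dim throughout: the 5 probe sets of Myh1, a myosin of skeletal muscle, lay between percentiles 84.4 and 98.6. Myh1 raises the upper quartile, and the brighter Omp probe set and Cnga2 lie under that quartile only with Myh1 counted. Both probe sets of Omp (43.1 and 20.2), that of Cnga2 (36.8), both of Cnga4 (17.8 and 9.59), the dimmest of Cngb1 (11.3) and that of Ano2 (28.9) lay below that upper quartile. Above it lay Gng13 at percentile 88.3, Adcy3 at 78.3, Gnal at 77.9 and 76.6, Ebf1 at 68.2, 52.4 and 48.6, and the other Cngb1 probe sets at 58.7 and 47.1. Omp and Cnga2, which mark mature olfactory sensory neurons, lay below the median brightness of all probe sets, while the 7 probe sets of 5 general neuron markers had their median at percentile 98.7. Brightness depends on the probes as well as on the transcript, so it does not rank the genes by amount.

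**Figure D1:**
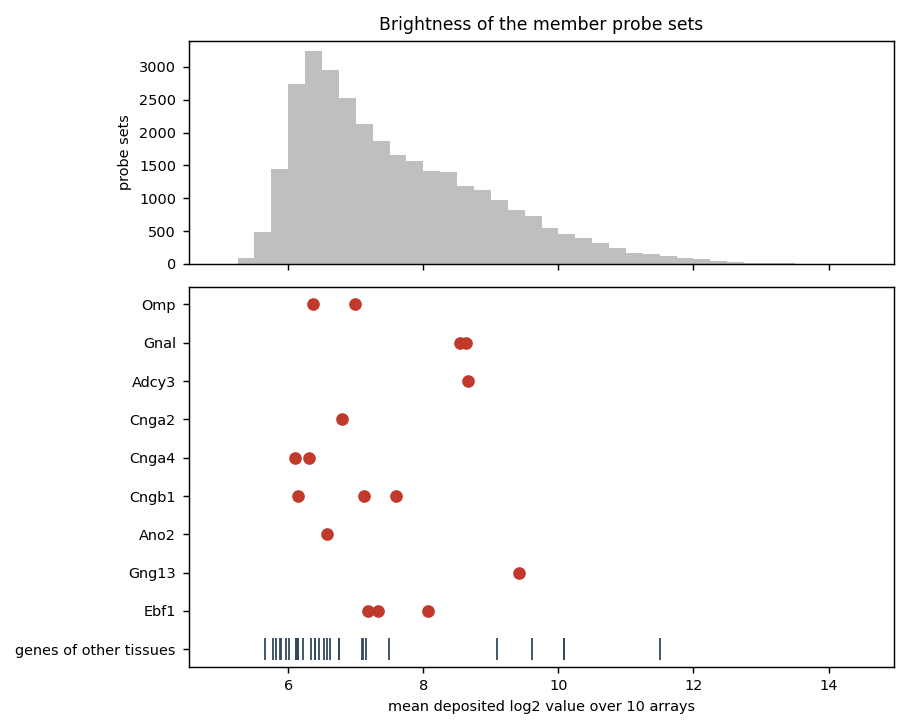
Top, number of probe sets by mean deposited log2 value over 10 arrays, and bottom, the same scale with 1 point per member probe set and 1 tick per probe set of genes of other tissues. Omp, Cnga2, Cnga4 and Ano2 lie among the ticks, with Cnga4 at 6.31 and 6.10, while Gng13 (9.42), Adcy3 (8.66) and Gnal (8.64 and 8.55) lie to the right of most of them.

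Omp is the olfactory marker protein of mature sensory neurons. On its dimmer probe set, 1387724_at, DMHF replicates 1 to 5 stood at -23.3, 30.1, 17.1, 11.1 and 15.0 millionths from the control mean, and control replicates 1 to 5 at -6.96, 10.3, -1.63, 0.0194 and -1.70. Thus 4 of 5 DMHF rats lay above every control rat and DMHF replicate 1 lay below every one of them. The difference was 10.0 millionths (limma SE 8.89, 95% interval -10.2 to 30.2), or 0.68 within-group SD, with an unadjusted p of 0.290 by limma and of 0.325 by the exact permutation test. The SD was 19.9 millionths among DMHF rats and 6.31 among control rats (n = 5 each). Without DMHF replicate 1 the difference was 18.3 millionths (limma adjusted p = 0.590), and without DMHF replicate 2 it was 4.98.

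The brighter Omp probe set, 1369835_at, showed another picture. DMHF rats had -2.13, 14.4, -0.463, -0.540 and 1.80 millionths, and control rats had -2.41, 9.22, 0.103, -6.61 and -0.307. Here the animals with replicate number 2 were the highest of both groups, and the other 4 DMHF rats lay within the control range. Its difference of 2.61 millionths (limma SE 3.79), 0.42 SD, became -0.335 without DMHF replicate 2. The unadjusted limma p was 0.508, and 0.0868 with replicate number added to the model as a block. The matching limma adjusted p values were 0.9996 and 0.759.

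Gnal, the alpha subunit of the olfactory and striatal G protein, was measured by a pair of probe sets of like brightness. On 1394575_at DMHF rats had 0.974, 6.24, 4.002, 5.65 and -2.26 millionths, and control rats had -3.11, -0.709, -0.414, 3.56 and 0.669. DMHF replicates 2, 3 and 4 lay above all control rats, while DMHF replicate 5 lay near the low end. The difference was 2.92 millionths (limma SE 1.84, 95% interval -1.25 to 7.09), or 0.96 SD, with an adjusted p of 0.956 by limma and an exact permutation p of 0.159 before adjustment. Leaving out DMHF replicate 5 gave 4.22 millionths (limma adjusted p = 0.686).

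On the other Gnal probe set, 1384229_at, DMHF rats had -2.10, 0.997, 0.918, 1.41 and 0.931 millionths, and control rats had -1.03, -0.817, -1.59, 1.08 and 2.36. No DMHF rat lay above the highest control rat, and DMHF replicate 1 lay below all of them. The difference was 0.431 millionths (limma SE 0.955), or 0.28 SD, and ranged from 0.0342 without control replicate 3 to 1.06 without DMHF replicate 1.

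Gng13, a gamma subunit found with olfactory and taste G proteins, had the brightest of the 16 probe sets and was, beside Ebf1, the member with a difference below 0. DMHF rats had 0.137, -1.70, -0.650, -0.876 and 0.0564 millionths, and control rats had -0.730, -0.135, 0.381, -0.0606 and 0.543. DMHF replicates 2 and 4 lay below all control rats and the other 3 lay within their range. The difference was -0.606 millionths (limma SE 0.439, 95% interval -1.60 to 0.389), or -0.95 SD, and was nearest to 0 without DMHF replicate 2 (-0.333).

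Adcy3, the cyclase that makes cyclic AMP in olfactory and neuronal cilia, had a bright probe set with close values. DMHF rats had 0.507, -0.0222, 0.142, 1.08 and 0.367 millionths, and control rats had -0.505, -1.02, 0.230, 1.27 and 0.0208. All DMHF rats lay within the range of the control rats. The difference was 0.414 millionths (limma SE 0.461, 95% interval -0.631 to 1.46), or 0.61 SD, and 16.3% of all probe sets had a within-group SD as small on the deposited scale, which need not compare between probe sets.

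**Figure D2:**
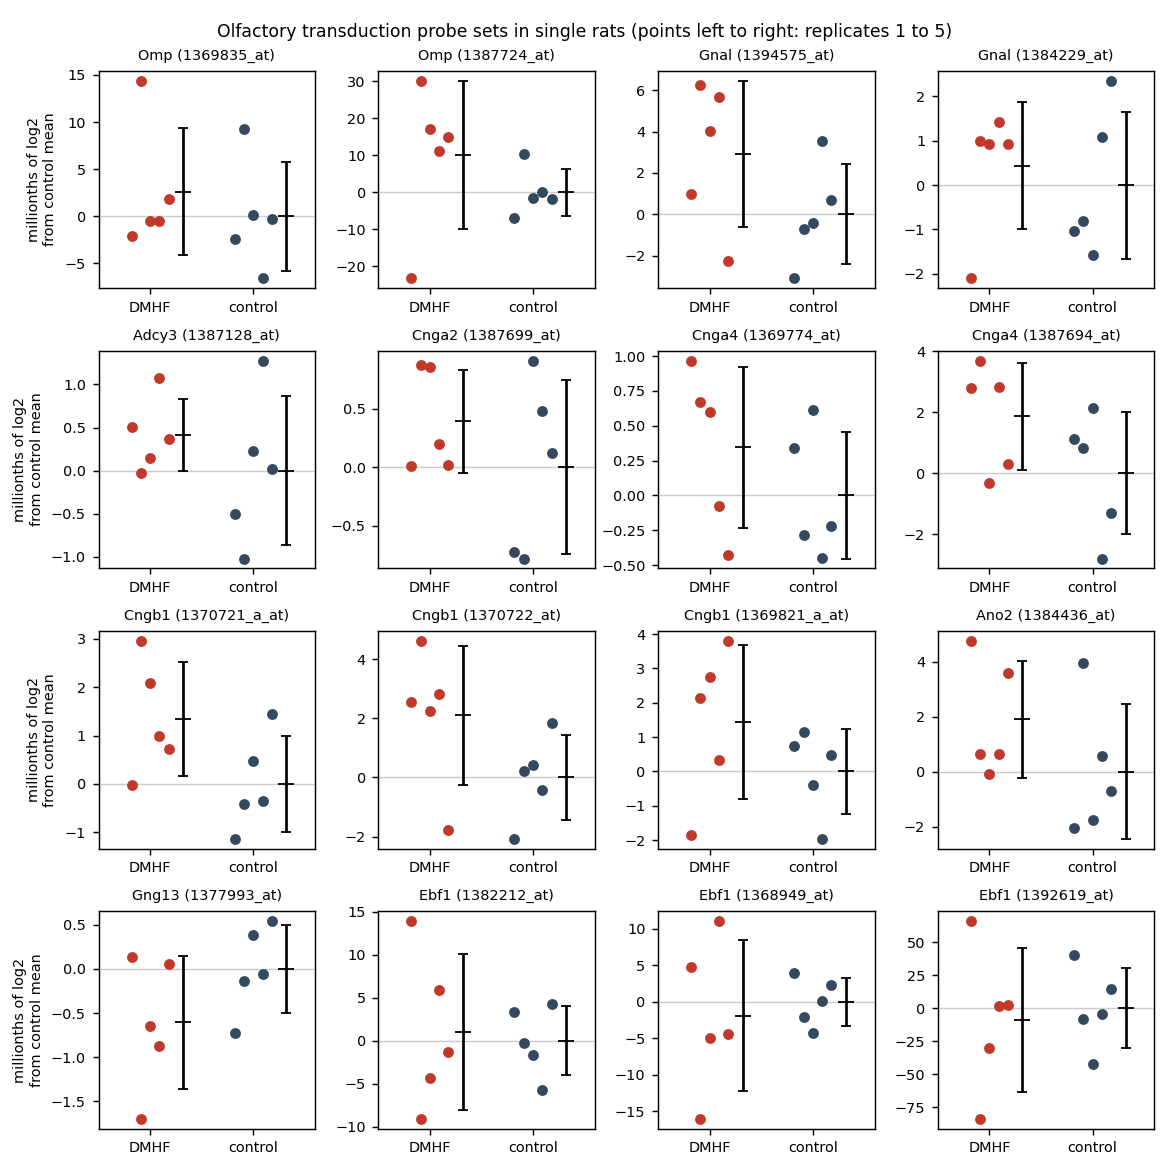
Values of the 16 member probe sets in millionths of a log2 unit from the control mean, with DMHF rats at the left and control rats at the right of each panel, points for replicates 1 to 5, and mean and SD (n = 5) beside them. The groups overlap in every panel, and the axes differ, from about 1 millionth for Cnga2 to -83.9 and 66.1 for DMHF rats on Ebf1 1392619_at.

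Cngb1, the modulatory subunit that the olfactory channel shares with the rod channel, had the member with the lowest p. On 1370721_a_at DMHF rats had -0.0120, 2.96, 2.09, 0.986 and 0.713 millionths, and control rats had -1.13, -0.415, 0.465, -0.356 and 1.44. DMHF replicates 2 and 3 lay above all control rats and the other 3 lay within their range. The difference was 1.35 millionths (limma SE 0.685, 95% interval -0.208 to 2.90), or 1.24 SD, with an unadjusted p of 0.0816 by limma, 0.0952 by the exact permutation test and a limma adjusted p of 0.931.

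The Cngb1 probe set 1370722_at had 2.54, 4.62, 2.26, 2.83 and -1.77 millionths in DMHF rats, and -2.07, 0.208, 0.427, -0.417 and 1.85 in control rats. Here 4 of 5 DMHF rats lay above every control rat, and DMHF replicate 5 lay near the lowest of them. The difference was 2.10 millionths (limma SE 1.19), or 1.08 SD, and 3.06 without DMHF replicate 5 (limma adjusted p = 0.631). The dimmest Cngb1 probe set, 1369821_a_at, ran from -1.86 to 3.80 millionths in DMHF rats and from -1.96 to 1.15 in control rats, with a difference of 1.44 (0.80 SD). All 3 Cngb1 probe sets thus had a difference above 0, at 0.80 to 1.24 SD, with 4 of 5 DMHF rats above the control mean on each.

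Cnga2 forms the pore that cyclic AMP opens in the olfactory channel. DMHF rats had 0.0138, 0.872, 0.854, 0.199 and 0.0168 millionths, and control rats had -0.725, -0.781, 0.910, 0.479 and 0.118. All 5 DMHF rats lay above the control mean and none lay above the highest control rat. The difference was 0.391 millionths (limma SE 0.424, 95% interval -0.571 to 1.35), or 0.64 SD.

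Ebf factors, known in olfactory neurons from their binding to the Omp promoter, bind a palindrome whose consensus is TCCC, any 2 bases, then GGGA, which reads alike on both strands. Among the RefSeq promoters of GRCr8, which run from 250 bases before to 50 after a start, 9 belonged to 7 members: Cnga2, Cnga4, Cngb1, Ano2 (3 promoters), Gng13, Ebf1 and Gnal. Only that of Cnga2 held the palindrome, beginning 98 bases before the start, against 0.834% of 33469 promoters in the table. The Cnga2 promoter, chrX:154741516-154741815 on the plus strand of GRCr8, is shown because it is the one member promoter with the letters of an Ebf site, in capitals.
Cnga2: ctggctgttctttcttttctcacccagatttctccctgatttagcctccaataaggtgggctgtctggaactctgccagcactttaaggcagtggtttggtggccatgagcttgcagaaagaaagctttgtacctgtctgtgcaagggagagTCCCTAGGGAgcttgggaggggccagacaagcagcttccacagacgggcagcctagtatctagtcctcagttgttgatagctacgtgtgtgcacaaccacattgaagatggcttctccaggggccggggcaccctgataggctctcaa
A match in letters says nothing about whether Ebf1 is bound there in brain.

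Cnga4, a subunit that speeds the closing of the channel by calmodulin, was dim on both probe sets. On 1387694_at DMHF rats had 2.81, 3.69, -0.328, 2.84 and 0.302 millionths, and control rats had 1.12, 0.833, 2.13, -2.80 and -1.29. DMHF replicates 1, 2 and 4 lay above all control rats. The difference was 1.86 millionths (limma SE 1.15, 95% interval -0.754 to 4.48), or 0.99 SD. The brighter probe set, 1369774_at, ran from -0.430 to 0.967 in DMHF rats and from -0.446 to 0.613 in control rats, with a difference of 0.346 (0.67 SD).

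Ano2, the calcium-gated chloride channel that carries much of the odor current, had 4.76, 0.642, -0.0916, 0.653 and 3.59 millionths in DMHF rats, and -2.05, 3.97, -1.77, 0.553 and -0.704 in control rats. Only DMHF replicate 1 lay above every control rat, among which control replicate 2 stood highest. The difference was 1.91 millionths (limma SE 1.39, 95% interval -1.25 to 5.08), or 0.83 SD, and 2.90 without control replicate 2 (limma adjusted p = 0.787).

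**Figure D3:**
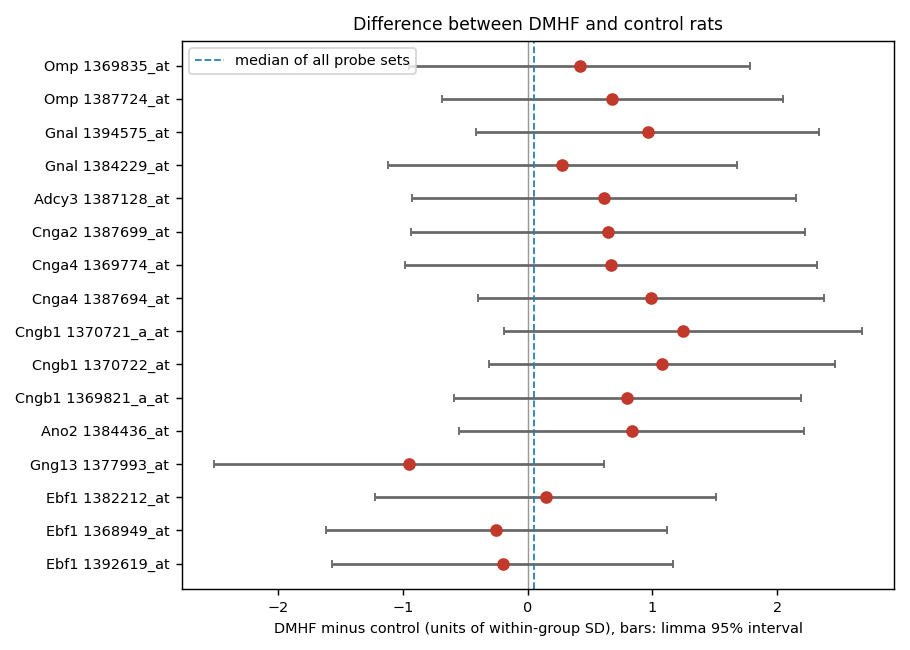
Difference DMHF minus control of each member probe set in units of its within-group SD, with limma 95% intervals, and the median of all probe sets as a dashed line. All 16 intervals include 0, the points run from -0.95 for Gng13 to 1.24 for Cngb1 1370721_a_at, and 13 lie above 0.

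Ebf1, a transcription factor of olfactory neurons, B cells, the striatum in development and the mural cells of vessels, was measured by 3 probe sets of unequal spread. The within-group SD was 44.2 millionths on 1392619_at, the highest of the 16 member probe sets on the deposited scale, and 7.01 and 7.67 on 1382212_at and 1368949_at, below the 14.8 of Omp 1387724_at. On its brightest probe set, 1382212_at, DMHF rats had 13.9, -9.10, -4.33, 5.91 and -1.27 millionths, and control rats had 3.38, -0.311, -1.69, -5.70 and 4.33. On 1368949_at DMHF rats had 4.76, -16.0, -4.99, 11.1 and -4.47, and control rats had 3.91, -2.12, -4.22, 0.104 and 2.33. On 1392619_at DMHF rats had 66.1, -83.9, -30.0, 1.35 and 2.57, and control rats had 40.0, -8.13, -42.0, -4.57 and 14.7. DMHF replicate 2 was the lowest of all 10 rats on all 3 probe sets, and the highest was a DMHF rat on each, replicate 1 on 1382212_at and 1392619_at and replicate 4 on 1368949_at. The differences were 1.03, -1.93 and -8.79 millionths (limma SE 4.22, 4.62 and 26.6), or 0.15, -0.25 and -0.20 SD. Each sign turned with certain single rats left out. For 1382212_at the difference was -2.20 without DMHF replicate 1, -0.193 without DMHF replicate 4 and -0.397 without control replicate 4. For 1368949_at it was 1.59 without DMHF replicate 2, and for 1392619_at it was 10.0 without DMHF replicate 2 and 1.21 without control replicate 1. The SD among DMHF rats was 2.23, 3.15 and 1.80 times that among control rats, and this ratio was not tested.

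The 3 Ebf1 probe sets varied together over the 10 rats. After centring each group, Pearson's r was 0.87 between 1382212_at and 1392619_at, 0.80 between 1382212_at and 1368949_at and 0.78 between 1368949_at and 1392619_at (n = 10, permutation test, unadjusted p = 0.00159, 0.00675 and 0.0115, adjusted over 9 pairs of probe sets of one gene p = 0.0143, 0.0304 and 0.0345). Spearman's rho was 0.73, 0.82 and 0.82 in the same order (permutation test, unadjusted p = 0.0210, 0.00585 and 0.0060, adjusted p = 0.0629, 0.0270 and 0.0270). With the 2 rats farthest from the median of the pair's brighter probe set left out, r was 0.60, 0.72 and 0.93. For the other 6 pairs of probe sets of one gene, none passed. Pearson's r was 0.64 for Omp, 0.46 for Gnal and 0.57 for Cnga4 (permutation test, n = 10, adjusted p = 0.100, 0.234 and 0.124), and it ran from -0.33 to 0.65 for the 3 pairs of Cngb1. For Omp, Gnal and Cnga4, Spearman's rho was 0.49, 0.61 and 0.64 (permutation test, n = 10, adjusted p = 0.199, 0.120 and 0.120). Without the 2 rats farthest out on the brighter probe set, r was 0.32, 0.67 and 0.48.

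**Figure D4:**
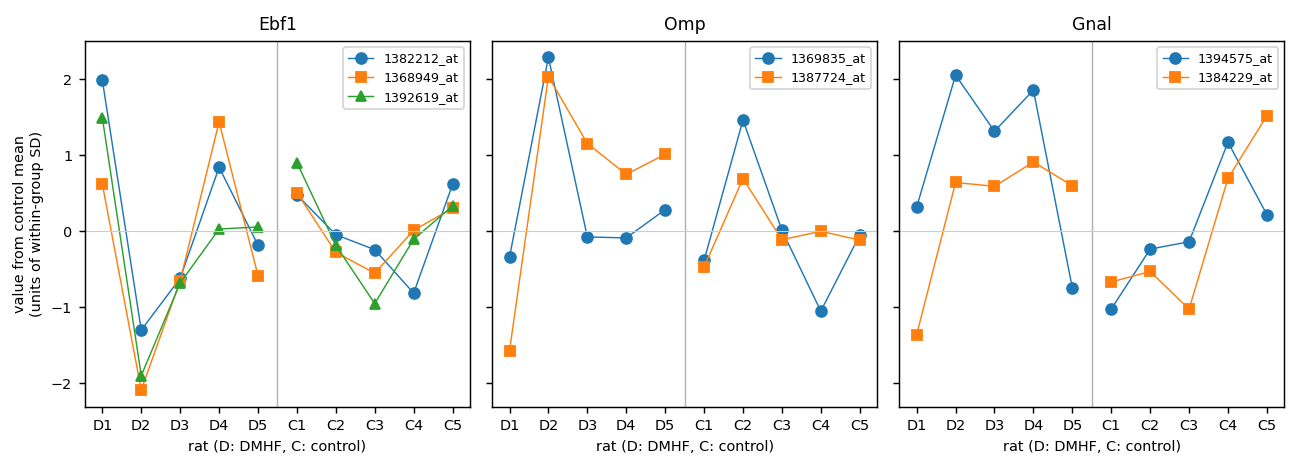
Values of Ebf1, Omp and Gnal in each rat, in units of the within-group SD from the control mean, DMHF rats at the left and control rats at the right of each panel, with 1 line per probe set. The 3 Ebf1 lines share their low point at DMHF replicate 2, while the Gnal lines part at several rats (r = 0.46).

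Between the brightest probe sets of different members, no pair passed a test for varying together. Over the 36 pairs of brightest probe sets of the 9 genes, r of the group-centred values had a median of 0.0054, ran from -0.68 (Omp and Adcy3) to 0.66 (Cnga2 and Cngb1), and was above 0 for 18. At an adjusted p under 0.05, 0 of the 36 pairs passed the permutation test, and 2 were listed at an unadjusted p under 0.05. Among single rats, DMHF replicate 2 was the highest rat on 6 of the 16 probe sets and the lowest on 4, and DMHF replicate 1 was the highest on 4 and the lowest on 2.

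**Figure D5:**
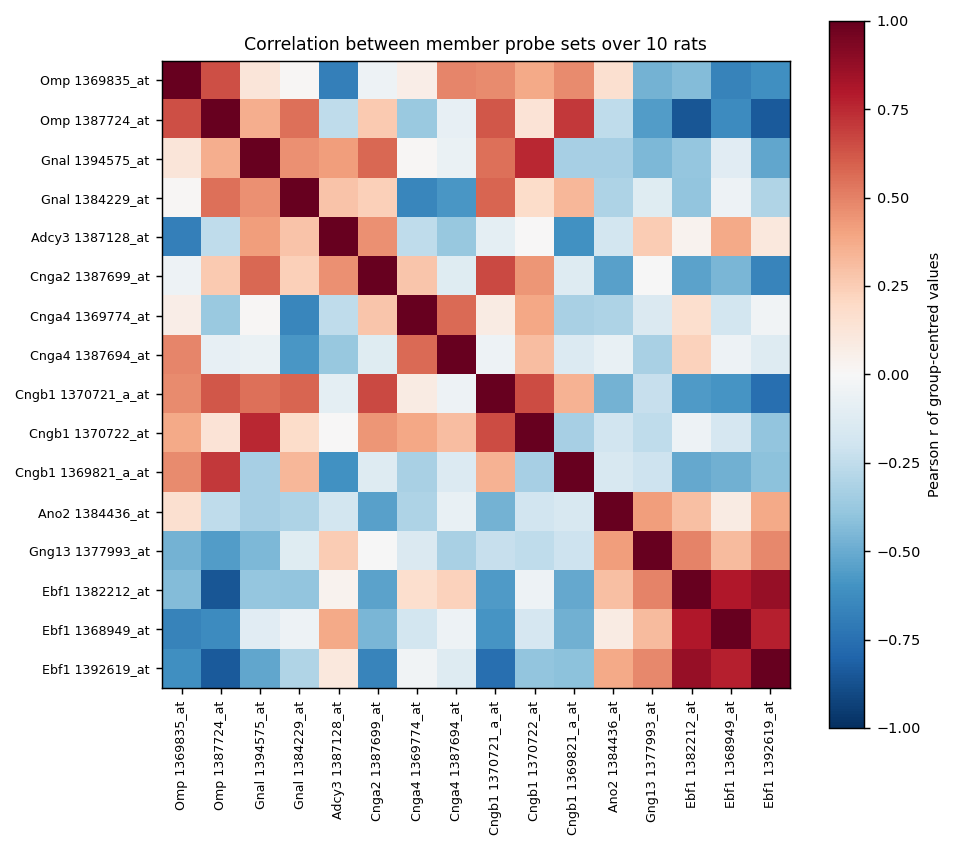
Pearson's r of group-centred values over 10 rats for each pair of the 16 member probe sets, red above and blue below 0. The block of 3 Ebf1 probe sets is red (0.78 to 0.87), and Ebf1 and Omp are blue against each other (-0.86 to -0.43).

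Striatal genes were set beside the members because Gnal serves there. The 17 probe sets of 11 striatum markers, among them the dopamine receptors Drd1 and Drd2, had a difference above 0 for 3 and below 0 for 14, with 0 past the test and a median of -0.32 SD. The 3 above 0 are 17.6%, against 53.2% of all probe sets and 45.5% of the 15521 brighter ones. The striatum list was mostly bright, with its median at percentile 74.5. For each member probe set the median r with these 17 was taken over the 10 rats, as a description. It was 0.47 and 0.57 for Gnal, at percentiles 93.4 and 97.8 among 20809 named probe sets outside the list, whose own median was -0.04. Such values were not particular to Gnal: they were 0.61 and 0.43 for the brighter Cngb1 probe sets and 0.46 for Cnga2. For the 3 Ebf1 probe sets the medians were -0.47, -0.41 and -0.54, at percentiles 10.2, 14.46 and 4.93. All of these correlations share the same 10 arrays.

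The genes whose pattern over the 10 rats was most like a member were looked up among the other named probe sets. For Gnal 1394575_at they were Adissp (Pearson's r = 0.96, Spearman's rho = 0.94) and Kdm4b (0.95 and 0.95), out of 20564 probe sets searched. For Ebf1 1382212_at they were Ctsc (0.95 and 0.88) and Golm1 (0.95 and 0.98), and for Omp 1369835_at they were Cma1 (0.95 and 0.78) and Lrp5 (0.94 and 0.90). These are the extremes of as many correlations over 10 rats, so values this high are a description with no test.

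Other genes of odor signalling did not pass the test either. Odorant receptors, the first step of the pathway, were named by 6 probe sets for 6 genes, of which 5 had a difference above 0 and 0 passed. These 5 are 83.3%, against 53.2% of all probe sets and 67.7% of the 31 probe sets of genes of other tissues. Both lists were mostly dim, with medians at percentiles 21.2 and 21.8 of brightness. Among the odorant receptors the lowest p was that of Olr1, with 1.76 millionths (limma SE 0.697), 1.59 SD and a limma adjusted p of 0.876, at the 2.16th percentile of brightness. Regulators and transporters of the cilium had 14 of 32 probe sets above 0 and 18 below, with 0 past the test and a median of -0.11 SD. Slc24a4, the exchanger that removes calcium from the cilium after a response, had the lowest p there: -8.04 millionths (limma SE 2.52, 95% interval -13.8 to -2.33), -1.93 SD, limma adjusted p = 0.826. Relatives of the members in their own families had 20 of 43 above 0 and 23 below, with a median of -0.08 SD. Among them Cnga1, the pore subunit of the rod channel, stood at 3.20 millionths (limma SE 1.08), 1.82 SD, limma adjusted p = 0.868.

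Markers of the tissues where odor signals start gave no difference by the test. The 5 further markers of olfactory sensory neurons, with 8 probe sets, had 4 above 0 and 4 below, and Ncam2, an axonal adhesion protein of these neurons, had the lowest p (-51.6 millionths, limma SE 21.4, limma adjusted p = 0.881). The 10 measured olfactory bulb genes, with 13 probe sets, had 9 above 0 and 4 below, with a median of 0.10 SD. Those above 0 are 69.2%, against 53.2% of all probe sets. In that list Slc17a7, a glutamate transporter of mitral and many cortical cells, stood at 10.9 millionths (limma SE 3.92, limma adjusted p = 0.868) and Eomes, a factor of mitral and tufted cells, at 22.2 (limma SE 10.1, limma adjusted p = 0.931). Meis2, next by p, went the other way, at -4.67 millionths (limma SE 2.87, limma adjusted p = 0.951). The part of bulb tissue in the members' values was not tested.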

How the data were processed

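RNA of 10 rats, 5 DMHF and 5 control, was measured on Affymetrix arrays, with groups and replicate numbers as the titles give them. Per the labels' protocols, biotin-labelled cRNA was made from total RNA by a 3' kit. The authors deposited 1 table of 31099 probe sets, with values between 5.25 and 14.2 that are read as log2, higher for more RNA, since scale and direction are not stated. R 2.7.2 is named per the submitters' processing notes, and the method of normalization and summary was not given in the sources used here. Each array had a median of 7.24.

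Without 57 Affymetrix controls, 31042 probe sets were fitted in limma 3.58.1 (R 4.3.3; lmFit, then eBayes; DMHF against control, two-sided, Benjamini-Hochberg over all probe sets, threshold 0.05). An exact two-sided permutation test used all 252 assignments of arrays, with a smallest p of 0.00794. Correlations used 100000 permutations of the arrays and group-centred values. The number of arrays limits the precision. The moderated SE exceeds the own SE of probe sets with little spread, as for 5 of the 16 members. The fit was tested on simulated data. GEO's platform annotation gave the gene names: 20826 probe sets name 1 gene, 436 several and 9780 none here. Percentiles of brightness rank the mean over the 10 arrays among the 31042.

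Members and lists were chosen with earlier results of these data known. Named were all members, up to 4 genes with the smallest p from each list and the 2 genes most like a member; Drd1 and Drd2 serve as examples. Alternatives were the replicate block, quantile normalization, a common array median, another variance model, array weights, the brighter probe sets, the exact test, other probe sets per gene, and each array left out. The labels do not say that replicate numbers mark pairs, so the main fit held no block. Same-numbered arrays correlated between groups at 0.03 to 0.27, all above 0 (deviations in units of the within-group SD). Whether the numbers mark pairs or a batch was not tested.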

Additional observations from a re-analysis of the deposited data

Results flagged for a closer look

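In 32 sets of 5 rats (16 member probe sets in each group), the gap between an extreme rat and its nearest neighbour exceeded Dixon's 95% limit in 2, and chance alone gives about 1 in 20. One was Omp 1369835_at, where DMHF replicate 2 stood at 14.4 millionths of a log2 unit from the control mean, far above the other DMHF rats. The other was Gnal 1384229_at, where DMHF replicate 1 stood at -2.10 millionths, below the other DMHF rats, which lay between 0.918 and 1.41.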

How the results depend on the processing

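With all arrays, 0 probe sets passed an adjusted p under 0.05 by limma (1700 at an unadjusted p under 0.05) and 0 by the exact permutation test (1594 unadjusted). After quantile normalization 13 passed (604 unadjusted). Probe sets that became constant over the arrays were dropped, which left 10076 probe sets and 5 member probe sets to test. Of these 5, 2 had a difference above 0 (Omp 1369835_at and Ebf1 1382212_at), against 49.2% of the 10076. Ebf1 1368949_at and Cnga4 1387694_at had a difference of 0, and Cnga2 reversed to -14.9 millionths. Unadjusted counts were 541 with a common array median and 700 among the 15521 brighter probe sets. Of the brighter probe sets, 45.5% had a difference above 0, as had 5 of the 7 member probe sets there. The count of member probe sets at an unadjusted p under 0.05 was 0 with all arrays and 1 with array weights (Cngb1 1370721_a_at, limma adjusted p = 0.723). With array weights 6.76% of all probe sets were listed. With single arrays left out the count of member probe sets ranged from 0 to 3. It was 3 without DMHF replicate 1 (Omp 1387724_at, Cngb1 1370721_a_at and 1369821_a_at) and 2 without DMHF replicate 5 (Gnal 1394575_at and Cngb1 1370722_at). It was 1 without control replicate 2 (Ano2) and 1 without control replicate 5 (Cngb1 1370721_a_at). In the same order, these runs listed 6.95%, 6.71%, 6.13% and 5.94% of all probe sets. In the same runs 0 to 1 probe sets passed the adjusted test, the 1 without DMHF replicate 2, and the unadjusted count ranged from 1319 to 2156. In these runs 12 to 14 member probe sets had a difference above 0, against 51.55% to 54.23% of all probe sets. The cause of these changes was not tested, and some of these settings also hold fewer probe sets or arrays. With single arrays left out, differences ranged from -2.20 to 3.56 millionths for Ebf1 1382212_at, from -5.18 to 1.59 for 1368949_at, from -27.5 to 10.0 for 1392619_at and from -0.335 to 4.92 for Omp 1369835_at. The other 12 kept their sign in these runs. The replicate block gave 0 probe sets past the adjusted test and 2217 (7.14%) at an unadjusted p under 0.05, 0 of them members. With this block 13 member differences were above 0, against 53.2% of all probe sets. Its lowest limma adjusted p was 0.172, against 0.698 in the main fit. Same-numbered arrays were the best match for 3 of 5 numbers. With 1 probe set a gene, 8 of 9 genes had a difference above 0 by the brightest, 7 by the lowest p and 7 by the mean over probe sets.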

Other observations

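The probe sets of Ebf1 and Omp had negative correlations over the rats, a pattern noticed in the data. Over the 6 pairs of their probe sets, r of the group-centred values ran from -0.86 to -0.43 (n = 10). It was lowest for Ebf1 1382212_at with Omp 1387724_at, at -0.86 (rho -0.66), followed by Ebf1 1392619_at with the same Omp probe set, at -0.84 (rho -0.76). With the 2 rats farthest from the median of the Ebf1 probe set left out, r of the 6 pairs ran from -0.82 to 0.19. It was -0.44 and -0.42 for the pairs just named, -0.82 for Ebf1 1368949_at with Omp 1387724_at (-0.63 with all rats) and 0.19 for Ebf1 1382212_at with Omp 1369835_at (-0.43 with all rats). For this last pair r was -0.028 when the 2 rats were instead those farthest from the Omp median. By Pearson's r, 2 of the 6 pairs had a permutation adjusted p under 0.05, and by Spearman's rho the lowest was 0.0904. All 6 were picked for this pattern, so these p values cannot serve as a test, and the values are a description. Among the 36 pairs of brightest probe sets of different members, 0 passed the permutation test at an adjusted p under 0.05 (2 at an unadjusted p under 0.05).

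The 3 probe sets shared by Ebf3 and Ebf1, which belong to no gene alone, differed by -10.2 (limma SE 5.33), 4.81 (9.12) and 0.586 (1.98) millionths between DMHF and control rats, with limma adjusted p values of 0.936, 0.9996 and 0.9996.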
